A study of Mus musculus with 9 samples.

Results

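The ZFP genes are the mouse genes with a numbered zinc finger protein symbol, most of which encode proteins that bind DNA through C2H2 zinc fingers. Of 346 such symbols among 18188 genes in the data (Zfp36, a CCCH-type RNA-binding protein, was left out), 236 had a mean TPM over the 9 libraries of at least 2 and form the set described here. TPM values are reads divided by gene length and then scaled so that every library has the same sum. Members were selected on their mean TPM, so the level is given as a description only. RNA from splenic CD8+ T cells of mice was compared between 5 wild-type libraries (WT) and 4 libraries in which RIG-I, the cytosolic sensor of viral RNA, is knocked out (Rig1 KO). Per its title, the study asked about RIG-I as a brake on the antitumor response of these cells. The groups differ in genotype alone as far as the labels say, and no treatment is named. Mouse strain, age, how the knockout was made and in which cells it acts, and whether animals were pooled are not given in the sources used here.

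A C2H2 finger is a short loop of protein held by a zinc ion, and arrays of such fingers read stretches of DNA. Many of these proteins also carry a KRAB domain, which recruits the corepressor TRIM28 and, through it, enzymes and readers of histone H3 lysine 9 methylation. KRAB zinc finger genes lie in clusters of recently duplicated copies, and many of their products silence retrotransposons. Others of the set have no KRAB domain and work as activators, as adaptors for chromatin complexes, in RNA splicing or in ribosome assembly.

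The depth was similar in all libraries, with 15496262 to 17893558 reads recovered from the TPM values. The transcript of the targeted gene, listed under its older symbol Ddx58, lay between 63.2 and 67.4 TPM in WT and between 30.6 and 35.2 TPM in Rig1 KO, without overlap. The CD8 T cell markers were present in every library, with a sum over Cd3e, Cd3d, Cd8a, Cd8b1 and Cd2 of 2740 to 3201 TPM in WT and 4002 to 4473 TPM in Rig1 KO. These markers also moved with genotype, with 5 of 5 higher in Rig1 KO. Other cells were also represented. B cell markers summed to between 152 and 1071 TPM in WT, highest in WT 5, and between 88.0 and 185 TPM in Rig1 KO, and 5 of the 6 tested were lower in Rig1 KO. Platelet markers (180 to 242 TPM in WT, 31.2 to 39.3 in Rig1 KO, 4 of 4 lower), basophil and mast cell markers (10.9 to 43.1 in WT, 199 to 390 in Rig1 KO, 4 of 4 higher) and NK cell markers (1328 to 1568 in WT, 2208 to 2494 in Rig1 KO, 5 of 5 higher, of which Nkg7 and Eomes are also made by CD8+ T cells) moved with genotype, and no marker measured was at 0 in all libraries of a group. Of 5 macrophage markers (343 to 813 and 599 to 705 TPM) 0 passed. In neutrophil (59.1 to 271 and 33.3 to 70.0 TPM), dendritic (13.1 to 53.8 and 53.5 to 64.4), erythroid (73.8 to 196 and 175 to 318) and CD4 or regulatory T cell lists (6.71 to 37.96 and 5.29 to 7.87), 2 were lower, 1 higher, 3 higher and 0 called, in that order. The part of these cells in the results below was not tested beyond a fit with the B cell markers as a covariate. In bulk samples fewer cells of a type and less RNA per cell cannot be told apart.

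The 236 ZFP genes were expressed at modest levels, from 2.12 to 212 TPM with a median of 13.9, and every one was above 0 in every library. The implied gene lengths include introns, so a TPM here is reads per base of genomic span, and comparing levels between genes on this scale favours genes with short introns. Just inside the threshold lay Zfp799 (2.12), Zfp811 (2.13) and Zfp759 (2.13 TPM), and just outside it Zfp459 (1.996), Zfp808 (1.97) and Zfp870 (1.97 TPM). Of the set, 215 genes reached 2 TPM in every library and 11 had a WT mean under 2, so they belong to it through their Rig1 KO level, while 0 had a Rig1 KO mean under 2. All 236 passed the filter for testing (at least 4 libraries at 1 TPM or more). The median gene of the set had 354 reads per library, 186 had at least 100 reads in every library, and the thinnest value was 4 reads, of Zfp593.

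The coding sequences divide the set into classes. A KRAB domain was found in 143 genes, no KRAB domain in 91, and 2 (Zfp267 and Zfp268) had no coding sequence in the annotation. Among the 91, 69 had at least 3 C2H2 fingers and neither KRAB nor SCAN, 3 had a SCAN domain (a dimerisation domain), and 19 had fewer than 3 fingers. The median number of fingers was 10.5 over the set, 12 in KRAB genes and 7 in the others, with a maximum of 36.

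To show what lies in front of these genes, the 250 bases upstream of the start are printed for genes that rose and genes that fell. Zfp760 and Zfp329 are among those with the largest rise in Rig1 KO. Zfp868 had the largest fall, and Zfp592 the smallest among the genes called lower. Sequences are from RefSeq (build GRCm38.p6), written 5′ to 3′ on the strand of the gene. Capitals mark matches on either strand to GGGCGG (the GC box), CCAAT or TGANTCA (the AP-1 site), none of which contains another motif searched.
Zfp760 (chr17:21707491-21707740, plus strand): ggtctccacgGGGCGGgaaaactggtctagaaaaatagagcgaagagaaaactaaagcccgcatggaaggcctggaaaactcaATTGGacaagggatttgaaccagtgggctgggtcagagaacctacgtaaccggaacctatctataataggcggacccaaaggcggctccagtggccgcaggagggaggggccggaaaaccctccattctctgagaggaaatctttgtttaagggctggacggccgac
Zfp329 (chr7:12818861-12819110, minus strand): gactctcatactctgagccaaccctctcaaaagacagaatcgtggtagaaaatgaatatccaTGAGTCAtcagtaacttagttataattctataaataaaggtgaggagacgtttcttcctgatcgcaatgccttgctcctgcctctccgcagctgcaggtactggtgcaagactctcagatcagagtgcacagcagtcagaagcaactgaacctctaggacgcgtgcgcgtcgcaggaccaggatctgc
Zfp868 (chr8:69625549-69625798, minus strand): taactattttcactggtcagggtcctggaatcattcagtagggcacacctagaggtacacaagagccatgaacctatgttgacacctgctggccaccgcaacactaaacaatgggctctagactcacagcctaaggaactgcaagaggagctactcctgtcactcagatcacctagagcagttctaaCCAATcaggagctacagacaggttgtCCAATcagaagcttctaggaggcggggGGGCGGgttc
Zfp592 (chr7:80993434-80993683, plus strand): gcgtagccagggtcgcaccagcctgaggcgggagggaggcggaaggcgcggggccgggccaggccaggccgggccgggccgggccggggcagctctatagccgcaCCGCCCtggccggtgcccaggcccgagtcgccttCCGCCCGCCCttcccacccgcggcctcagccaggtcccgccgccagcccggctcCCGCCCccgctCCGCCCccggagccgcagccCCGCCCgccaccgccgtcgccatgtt
The GC content of these windows was 54.0% for Zfp760, 48.4% for Zfp329, 51.2% for Zfp868 and 81.6% for Zfp592. Zfp592 holds repeated GC boxes and no CCAAT, Zfp868 holds both motifs, and Zfp329 holds neither.

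Over the set, 203 genes matched a RefSeq promoter, as did 8495 of the 10540 tested genes. The windows of ZFP genes had a median GC content of 54.0%, against 59.6% for all tested genes. A GC box was present in 44.3% of them against 59.0%, and CCAAT in 50.7% against 37.2%. KRAB genes had a median of 52.4% and a GC box in 34.1%, while members without KRAB had 60.8% and 61.6%. The other motifs searched were rare in both the set and all tested genes: TGACGTCA (the cAMP response element) in 2.46% and 2.83%, TGANTCA in 4.43% and 4.06%, 2 copies of GAAA with 2 bases between them (the core of the interferon-stimulated response element) in 1.48% and 2.90%, and GCGC on both sides of AT (the NRF1 site) in 2.46% and 1.72%. GC boxes were found in 31.2% of 93 KRAB genes that rose, 41.9% of 31 KRAB genes that did not pass and 2 of 5 KRAB genes that fell. Among genes without KRAB they were found in 51.4% of 37 that rose, 67.7% of 31 that did not pass and 5 of 5 that fell.

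Most expressed ZFP genes were higher in Rig1 KO. Of 236, 147 rose, 14 fell and 75 did not pass an adjusted p of 0.05 (limma on log2(TPM + 1), Benjamini-Hochberg over all 10540 tested genes). Over all tested genes 45.7% passed, 33.5% higher and 12.2% lower, against 62.3% and 5.93% of the ZFP genes. The median log2 fold change (Rig1 KO minus WT) was 0.35 for the set (first to last quartile 0.12 to 0.64) and 0.13 for all tested genes (-0.07 to 0.34). In 133 genes the groups did not overlap, which was the case for 38.1% of all tested genes. Of the 11 genes that belong to the set through their Rig1 KO level, 10 were called higher. Without them, 137 of 225 genes were higher and 14 lower, with a median of 0.34. By the ratio of mean TPM, 75 genes that passed were at least 1.5-fold higher (12.1% of all tested genes) and 28 at least 2-fold higher (3.91%). These fold counts keep the 11 genes, whose median log2 fold change was 0.86 and whose rise helped to place them in the set. In the other direction 4 were at least 1.5-fold lower (5.74% of all tested genes) and 0 at least 2-fold lower (3.73%).

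**Figure D1:**
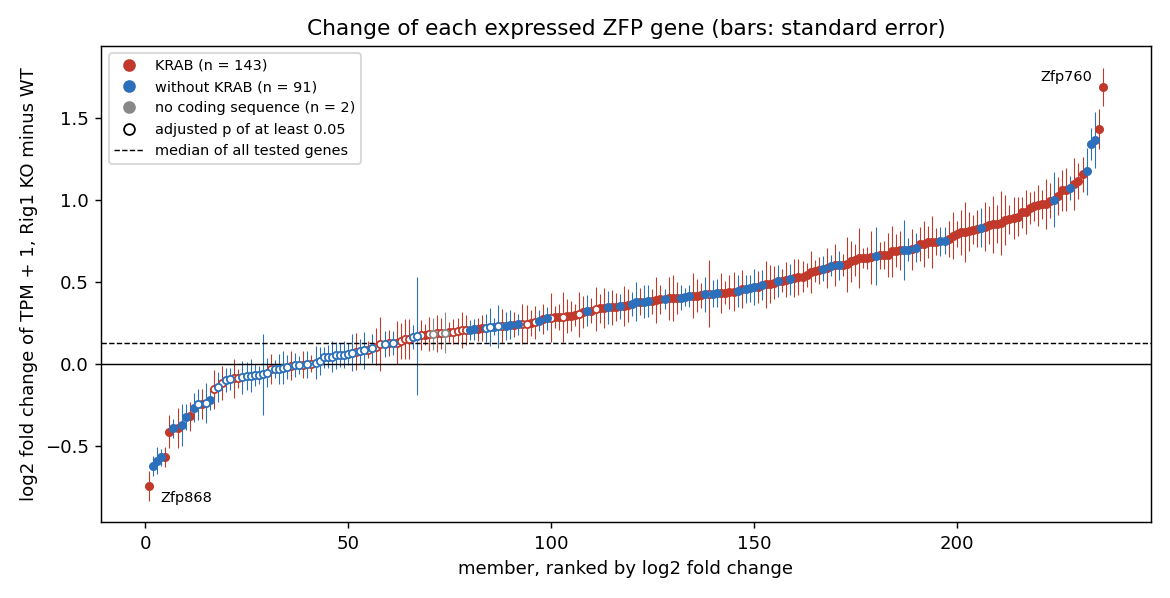
Each point is 1 of the 236 expressed ZFP genes, ranked on the horizontal axis by its log2 fold change of TPM + 1 (Rig1 KO minus WT, vertical axis, bars showing the standard error), with colour for the KRAB class and open points for an adjusted p of at least 0.05. The dashed line is the median of all tested genes (0.13), above which most ZFP genes lie, from Zfp868 at -0.74 to Zfp760 at 1.69.

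The counts in each direction changed with the scaling of the libraries. The median tested gene lay at 16.0 to 17.4 TPM in WT and at 17.8 to 19.9 TPM in Rig1 KO, and median ratio scaling, which centres all tested genes at a median of 0.00, called 45.2% of all tested genes, 22.6% higher and 22.6% lower. On that scale 110 ZFP genes rose, all of them among the 147, and 23 fell, which were the same 14 and 9 more. The median of the set was then 0.24. No ZFP gene turned from higher to lower.

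Among the 143 KRAB genes 103 rose, 34 did not pass and 6 fell, their median log2 fold change was 0.43, and in 90 the groups did not overlap. Among the 91 genes without KRAB 44 rose, 39 did not pass and 8 fell, with a median of 0.21 and 43 without overlap. The shares that rose were 72.0% and 48.4%. Of all tested genes 33.5% rose, 12.2% fell and 38.1% did not overlap. After median ratio scaling the medians were 0.31 and 0.07, with 79 higher and 7 lower against 31 higher and 16 lower. On that scale 22.6% of all tested genes were higher and 22.6% lower. With the B cell markers as a covariate, 49 KRAB genes (34.3%) and 28 genes without KRAB (30.8%) were higher and 3 of each lower, with medians of 0.39 and 0.23. In that fit 21.4% of all tested genes were higher and 5.83% lower. The difference between both classes was not tested. All 11 genes that belong to the set through their Rig1 KO level are KRAB genes. Without them 93 of 132 KRAB genes were higher and 6 lower, with a median of 0.42, and of 0.30 after median ratio scaling. The splits of the set below keep these 11 genes. KRAB genes outside the set (other symbols, or under the threshold) had 46 higher and 2 lower of 70 tested and a median of 0.48, close to that of the 143.

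**Figure D2:**
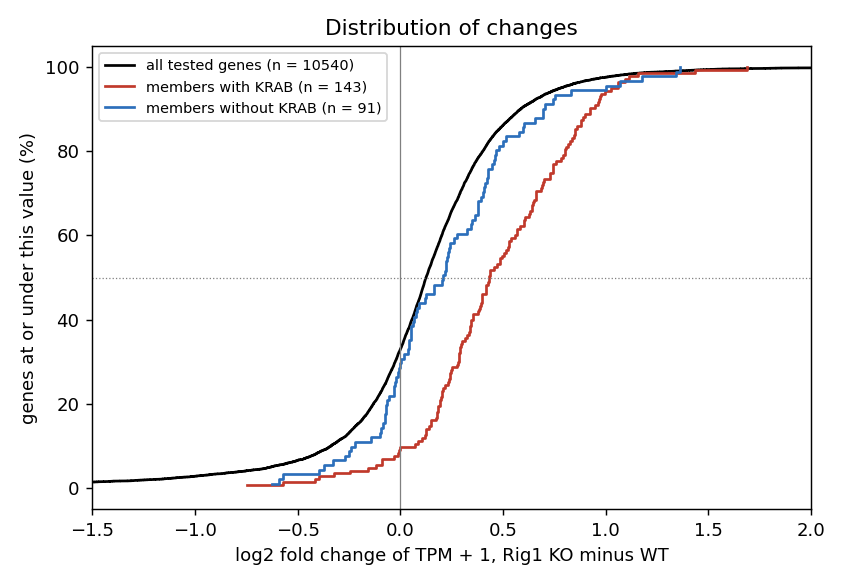
Cumulative share of genes (vertical axis, percent) at or under each log2 fold change of TPM + 1 (horizontal axis, Rig1 KO minus WT) for all tested genes, the 143 KRAB genes and the 91 genes without KRAB. The curves cross the middle line at 0.13, 0.43 and 0.21, so the KRAB curve lies furthest to the right.

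The largest rise was that of Zfp760, a KRAB gene with 16 fingers on chromosome 17. Its TPM in WT 1 to 5 were 1.30, 1.95, 1.71, 2.04 and 2.40, and in Rig1 KO 1 to 4 they were 8.06, 7.33, 8.92 and 8.61. The 4 Rig1 KO libraries lay close together and far above every WT library. Its log2 fold change was 1.69 (SE 0.117), and the ratio of mean TPM was 4.38. Its WT mean of 1.88 TPM lies under the threshold, so it is in the set only through its Rig1 KO level and its rise is a description.

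Zfp493, a KRAB gene of chromosome 13 with 11 fingers, measured 2.38, 2.03, 1.97, 1.69 and 1.90 TPM in WT and 8.13, 5.99, 8.56 and 5.92 TPM in Rig1 KO. Rig1 KO 1 and 3 were the highest, and all 4 lay above WT. Its log2 fold change was 1.43 (SE 0.122). Zfp418, another KRAB gene of low level, went from 1.25, 1.51, 1.09, 1.97 and 1.29 TPM to 5.77, 3.47, 3.18 and 4.51 TPM, without overlap and with the widest relative spread among the Rig1 KO libraries of the genes named here for a rise (log2 fold change 1.10, SE 0.157). Between 20 and 113 reads per library stood behind the Zfp418 values. The WT means of Zfp493 (1.99 TPM) and Zfp418 (1.42 TPM) also lie under the threshold, so both belong to the set through their Rig1 KO level and their rises are likewise descriptions.

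Further KRAB genes with long finger arrays followed. Zfp950 (17 fingers) measured 3.997, 4.49, 5.07, 3.71 and 3.59 TPM in WT and 9.67, 9.22, 11.95 and 11.2 TPM in Rig1 KO, a log2 fold change of 1.16 (SE 0.108). Zfp160 (18 fingers) measured 6.24, 6.60, 9.05, 6.96 and 6.93 TPM in WT and 16.1, 14.3, 18.5 and 17.6 TPM in Rig1 KO, a log2 fold change of 1.11 (SE 0.107). Zfp748 (23 fingers) measured 7.11, 6.86, 7.97, 7.78 and 5.18 TPM in WT and 15.5, 12.8, 19.4 and 14.99 TPM in Rig1 KO, a log2 fold change of 1.06 (SE 0.133). In all of these genes the Rig1 KO libraries lay above every WT library, and Rig1 KO 3 was the highest. Zfp950 overlaps Grk5 on the other strand in the annotation, and since the use of strand in the counting is not given, reads of the pair cannot be told apart.

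Among genes without KRAB, Zfp296, known from pluripotent cells, rose most. Its TPM were 7.47, 13.6, 8.29, 12.5 and 10.2 in WT and 30.9, 29.2, 21.5 and 30.5 in Rig1 KO. Rig1 KO 3 was the lowest of its group and still above every WT library (log2 fold change 1.36, SE 0.171, adjusted p = 0.000117 in limma). Zfp296 overlaps Gemin7 on the other strand, so the same limit applies.

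Zfp329 (12 fingers) rose from 13.0, 13.2, 14.3, 10.3 and 12.6 TPM to 34.7, 29.1, 34.2 and 36.7 TPM. The groups lay far apart, with a log2 fold change of 1.34 (SE 0.0960, adjusted p = 2.32e-06 in limma). Its upstream window, printed above, holds TGANTCA and no GC box. Zfp3 (13 fingers) measured 4.94, 7.32, 5.57, 4.76 and 6.48 TPM in WT and 12.6, 11.5, 17.1 and 16.4 TPM in Rig1 KO (log2 fold change 1.17, SE 0.144), again without overlap.

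Zfp260, known as a partner of GATA4 in the heart, had the highest TPM of the 28 genes that were at least 2-fold higher. It measured 43.2, 39.0, 47.9, 45.2 and 44.3 TPM in WT and 87.6, 85.2, 102 and 98.4 TPM in Rig1 KO. The spread within each group was small beside the gap between them (log2 fold change 1.07, SE 0.0745, adjusted p = 1.92e-06 in limma). These 10 genes were chosen for groups that do not overlap, so that separation is no further evidence. After median ratio scaling their log2 fold changes were 0.93 to 1.58.

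**Figure D3:**
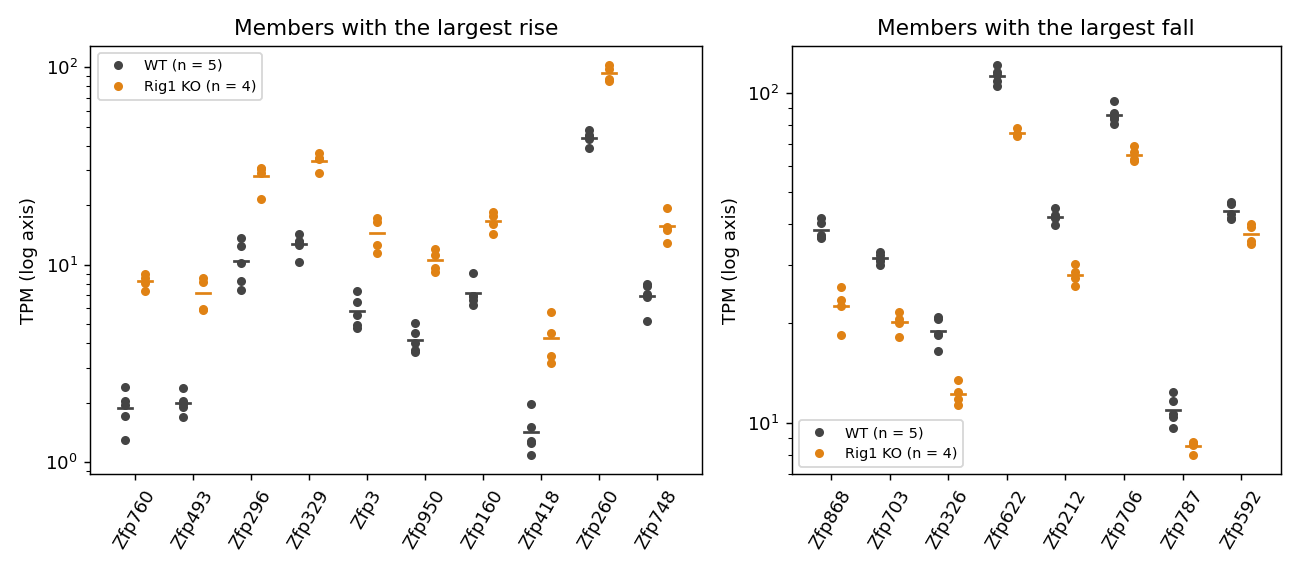
TPM on a log axis for the 10 genes with the largest rise (left) and the 8 genes that fell without overlap between groups (right), with a point for each library and a line at each group mean, WT (n = 5) in grey and Rig1 KO (n = 4) in orange. In every gene shown the 2 clouds of points are separate, by the widest ratio in Zfp760 and the narrowest in Zfp592.

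Of the 236 genes, 8 fell without overlap between groups, where 10.1% of all tested genes lay lower without overlap. The largest fall was that of Zfp868, a KRAB gene with 9 fingers. Its TPM were 36.5, 36.4, 40.2, 41.6 and 37.0 in WT and 22.6, 18.4, 23.5 and 25.9 in Rig1 KO. All Rig1 KO libraries lay well under the lowest WT library, Rig1 KO 2 the furthest (log2 fold change -0.74, SE 0.0908, adjusted p = 9.98e-05 in limma). Its upstream window, printed above, carries CCAAT and a GC box. Zfp212, a KRAB gene with 4 fingers, measured 44.6, 39.8, 42.0, 42.8 and 41.7 TPM in WT and 30.3, 27.5, 28.7 and 26.0 TPM in Rig1 KO, a log2 fold change of -0.57 (SE 0.0596).

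The other 6 genes that fell without overlap have no KRAB domain. Zfp703, a corepressor of the NET family, measured 31.4, 32.2, 31.0, 32.9 and 30.1 TPM in WT and 20.7, 21.6, 18.3 and 20.01 TPM in Rig1 KO (log2 fold change -0.62, SE 0.0610). Zfp326, a subunit of the DBIRD complex that couples transcript elongation to splicing, measured 20.9, 16.5, 18.4, 20.6 and 18.5 TPM in WT and 11.3, 11.8, 13.5 and 12.4 TPM in Rig1 KO (log2 fold change -0.59, SE 0.0824). Zfp622, a maturation factor of the large ribosomal subunit, measured 116, 105, 109, 113 and 121 TPM in WT and 75.3, 74.9, 74.0 and 78.2 TPM in Rig1 KO (log2 fold change -0.57, SE 0.0529). The Zfp622 values of the Rig1 KO libraries lay closer together, relative to their mean, than those of the others named here for a fall, and none of these 3 genes overlapped between groups.

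Smaller falls followed in Zfp706, a single-finger protein that represses Klf4 in embryonic stem cells, in Zfp787 and in Zfp592, a partner of the chromatin reader ZMYND8. Zfp706 went from 85.9 ± 5.25 (SD, n = 5) to 65.1 ± 3.15 TPM (SD, n = 4), a log2 fold change of -0.39, Zfp787 from 10.9 ± 1.08 to 8.50 ± 0.357 TPM (-0.33), and Zfp592 from 43.8 ± 2.47 to 37.4 ± 2.60 TPM (-0.22). With the B cell markers as a covariate none of these 3 passed (adjusted p = 0.0533, 0.342 and 0.453 in limma), and Zfp592 also lost its call without Rig1 KO 1 and 2 (0.124) and without WT 4 and 5 (0.0607). Zfp787 lost it without Rig1 KO 3 and 4 (0.0519). The remaining 6 genes that fell, Zfp954, Zfp951, Zfp821, Zfp850, Zfp654 and Zfp568, of which 4 have a KRAB domain, had log2 fold changes from -0.41 to -0.25 and overlapping groups.

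The number of fingers went with the size of the change. Genes with 0 to 2 fingers had a median log2 fold change of 0.04 (7 of 21 higher, 4 lower), those with 3 to 6 fingers 0.25 (16 of 30 higher, 3 lower) and those with 7 to 10 fingers 0.30 (39 of 66 higher, 5 lower). With 11 to 14 fingers the median was 0.45 (49 of 70 higher, 1 lower), and with 15 or more it was 0.46 (36 of 47 higher, 1 lower). Of all tested genes 33.5% were higher and 12.2% lower. The share higher among genes with 0 to 2 fingers was close to that, at 33.3% (19.0% lower). Since KRAB genes have more fingers, the same was read within each class. KRAB genes with at most 10 fingers had a median of 0.38 (32 of 51 higher) and those with more 0.53 (71 of 92 higher), while for genes without KRAB the medians were 0.16 (30 of 66 higher) and 0.26 (14 of 25 higher). These are descriptions over genes, which share libraries and, in clusters, sequence.

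**Figure D4:**
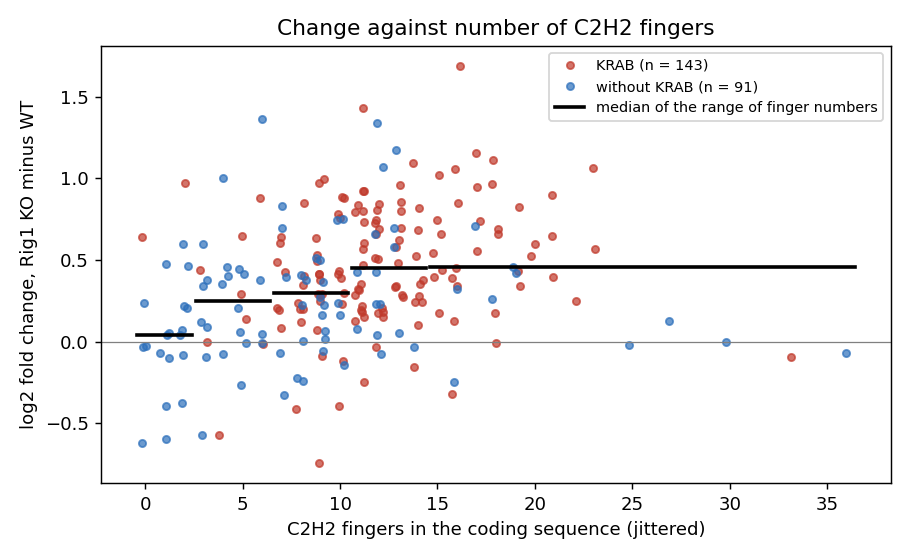
Log2 fold change of TPM + 1 (vertical axis, Rig1 KO minus WT) against the number of C2H2 fingers in the coding sequence (horizontal axis, jittered), 1 point for each of the 143 KRAB genes and 91 genes without KRAB. Black lines are medians of 5 ranges of finger number, which run from 0.04 at 0 to 2 fingers to 0.46 at 15 or more, and single genes with long arrays lie near 0.

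The 19 genes without KRAB or SCAN and with fewer than 3 fingers had 5 higher, 4 lower and a median of 0.04. These were shares of 26.3% and 21.1%, against 33.5% and 12.2% of all tested genes. Their median was -0.09 after median ratio scaling (3 higher, 6 lower). The 69 C2H2 genes without KRAB or SCAN had 36 higher, 4 lower and a median of 0.23, and all 3 SCAN genes rose (median 0.35). The 2 genes without a coding sequence did not pass.

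The change was spread over the range of expression. In 4 equal parts of the set by mean TPM (59 genes each) the median log2 fold changes were 0.41 (2.12 to 6.37 TPM), 0.42 (6.40 to 13.4 TPM), 0.32 (14.4 to 30.5 TPM) and 0.25 (31.4 to 212 TPM), with 35, 40, 35 and 37 genes higher and 3, 2, 3 and 6 lower. KRAB genes had medians of 0.48 and 0.35 below and above the median level of the set, and genes without KRAB 0.09 and 0.22. The 11 KRAB genes that belong to the set through their Rig1 KO level all lie in the lowest part (10 higher, median 0.86). The values of that part and of KRAB genes below the median level thus partly reflect how members were chosen. Over the 8721 other tested genes within the same range of mean TPM, 34.9% were higher and the median was 0.13.

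ZFP transcripts are rich in A and T. Their median transcript GC content was 43.9% (41.7% for KRAB genes and 51.1% for the others), against 49.8% for all tested genes. Among other tested genes with a GC content between the first and last quartile of the ZFP genes (40.1 to 51.4%), 33.2% were higher and the median log2 fold change was 0.12, while the 116 ZFP genes in that range had 74 higher, 8 lower and a median of 0.34. Within the set, the 117 genes under the median GC content had a median of 0.46 (81 higher) and the other 117 had 0.26 (66 higher).

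By position, ZFP genes lay on 20 chromosomes, with 64 on chromosome 7 and 31 on chromosome 17. On chromosome 7, 65.6% of them rose (35.9% of all tested genes there), and on chromosome 17, 71.0% rose (37.5%), with medians of 0.39 and 0.41. The lowest share among the 10 chromosomes with at least 10 ZFP genes was on chromosome 6, where 4 of 12 rose (33.3%, against 36.4% of all tested genes there), followed by chromosome 4 with 5 of 12 (41.7% against 34.2%). On chromosome 13, 15 of 17 rose and 0 fell, with a median of 0.65, among them Zfp493, Zfp748 and Zfp759. All tested genes of chromosome 13 had a median of 0.12 (128 of 365 higher). Only Zfp131 (-0.01) and Zfp367 (0.04, named after its value was seen) did not pass there. Zfp131 was called lower after median ratio scaling (-0.14, adjusted p = 0.0483 in limma).

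Over the whole set, the counts also differed between clustered and lone genes. With no neighbour that encodes at least 3 fingers, 49 of 94 genes rose and 8 fell (median 0.23), with 1 such neighbour 44 of 67 rose and 4 fell (0.38), and with neighbours on both sides 54 of 73 rose and 2 fell (0.47). Among KRAB genes alone the medians were 0.40, 0.43 and 0.47. In the same order 21 of 28, 31 of 46 and 51 of 69 of them rose, and 1, 3 and 2 fell. The share of KRAB genes that rose was thus no lower in lone genes than in clustered ones. Neighbouring copies share sequence, and how the authors counted reads that match several copies is not given in the sources used here, so single members of a cluster are uncertain. Of the set, 90 genes overlap another annotated gene (49 higher, 5 lower, median 0.28), and 146 overlap none (98 higher, 9 lower, 0.38).

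Library by library, the rise was present in every Rig1 KO library and larger in Rig1 KO 3 and 4. The median KRAB gene lay between 7.22 and 8.70 TPM in WT and at 11.1, 10.6, 12.8 and 12.1 TPM in Rig1 KO 1 to 4. The median gene without KRAB lay between 21.1 and 23.6 TPM in WT and at 23.8, 23.7, 25.9 and 28.2 TPM in Rig1 KO. On deposited TPM neither class overlapped between groups, though Rig1 KO 1 and 2 stood only just above WT 5 for genes without KRAB. The median tested gene moved the same way, at 16.0 to 17.4 TPM in WT and 17.9, 17.8, 19.9 and 19.4 TPM in Rig1 KO 1 to 4. The library values given here were not rescaled, so the part of the library scale in them was not tested. The whole set summed to between 5155 and 5274 TPM in WT and to 6206, 5936, 6871 and 6741 TPM in Rig1 KO, and took 0.842 to 0.890% of reads in WT against 0.964 to 1.03% in Rig1 KO.

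**Figure D5:**
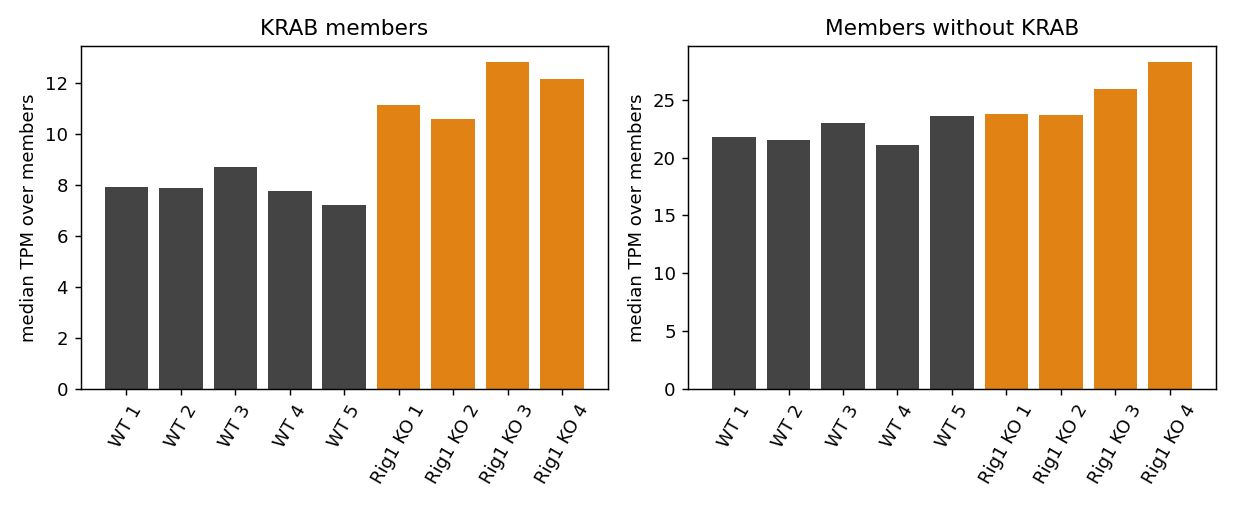
Bars give the median TPM over the 143 KRAB genes (left) and the 91 genes without KRAB (right) in each of the 9 libraries, WT in grey and Rig1 KO in orange, on axes that start at 0. Every Rig1 KO bar of the KRAB panel stands above every WT bar (10.6 or more against 8.70 or less), while the right panel shows a smaller step.

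The Rig1 KO libraries also differed among themselves. Rig1 KO 3 and 4 were both above Rig1 KO 1 and 2 in 60.6% of the ZFP genes and in 53.7% of all tested genes. Among the 147 genes that rose, the highest Rig1 KO value was in Rig1 KO 3 for 91, in Rig1 KO 4 for 37, in Rig1 KO 1 for 14 and in Rig1 KO 2 for 5. Without Rig1 KO 3 and 4, 96 genes were higher and 14 lower, where 20.5% of all tested genes were higher and 13.1% lower. Without Rig1 KO 1 and 2, 155 were higher and 7 lower, where the shares of all tested genes were 36.3% and 9.38%. The B cell markers also moved with genotype, and with their mean log2 level as a covariate 77 genes were higher and 6 lower (49 and 3 of the KRAB genes), where 27.3% of all tested genes passed, 21.4% higher and 5.83% lower. The median of the set in that fit was 0.34. The labels name no batches, and whether a pair of libraries shares a source was not tested.

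The most abundant ZFP genes were mixed. Zfp281, which binds GC-rich promoters, had the highest mean at 212 TPM, with 230, 226, 224, 212 and 200 TPM in WT and 196, 186, 228 and 209 TPM in Rig1 KO. Its groups overlapped and it did not pass (log2 fold change -0.10, adjusted p = 0.276 in limma), but after median ratio scaling it was called lower (-0.23, adjusted p = 0.0139). Zfp646, which overlaps Zfp668 and Prss53 on the other strand, stood at 175 ± 7.26 and 192 ± 20.5 TPM and did not pass either.

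The other 4 of the 6 most abundant genes rose. Zfp871, a KRAB gene, measured 129, 122, 137, 123 and 117 TPM in WT and 171, 164, 198 and 200 TPM in Rig1 KO (log2 fold change 0.54, SE 0.0743). Zfp207, the kinetochore protein BuGZ that loads BUB3 at mitosis, measured 102, 95.6, 107, 121 and 109 TPM in WT and 151, 142, 175 and 184 TPM in Rig1 KO (0.60, SE 0.0889). Neither gene's groups overlapped, with Rig1 KO 3 and 4 highest in both. Zfp830, a splicing and genome stability factor, rose from 125.7 ± 16.8 to 174 ± 8.43 TPM (0.48). Zfp263, a SCAN gene, stood at 137 ± 4.84 and 160 ± 8.92 TPM (0.22), and it lost its call after median ratio scaling (adjusted p = 0.185 in limma) and with the B cell covariate (0.110).

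Among genes with a known role in lymphocytes, Zfp683 (Hobit), a regulator of tissue-resident and cytotoxic lymphocytes, measured 19.3, 21.5, 31.1, 26.6 and 23.6 TPM in WT and 34.1, 29.9, 30.6 and 31.9 TPM in Rig1 KO. The groups overlapped through WT 3. It passed by a narrow margin (log2 fold change 0.38, SE 0.119, adjusted p = 0.0239 in limma) and lost the call after median ratio scaling (0.113), with the B cell covariate (0.477) and without WT 2 (0.0545), Rig1 KO 1 (0.0640) or Rig1 KO 4 (0.0562). Zfp335, needed for the maturation of T cells, did not pass, with means of 36.4 ± 2.59 and 37.8 ± 3.27 TPM. Zfp318, which controls IgD expression in B cells, stood at 28.2 ± 2.74 and 26.7 ± 3.82 TPM and did not pass, beside B cell markers that were lower.

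The KRAB genes with known targets were higher. Zfp809, which silences murine leukaemia proviruses through their primer binding site, measured 34.1, 39.4, 39.1, 35.4 and 35.7 TPM in WT and 56.8, 55.3, 61.4 and 58.1 TPM in Rig1 KO. The groups lay apart by more than the spread within either (log2 fold change 0.64, SE 0.0605, adjusted p = 1.71e-05 in limma). Zfp445, which maintains imprints, measured 91.5, 89.2, 92.2, 87.0 and 86.7 TPM in WT and 119, 115, 147 and 131 TPM in Rig1 KO, without overlap (0.51, SE 0.0701). Zfp932, a repressor of endogenous retroviruses, went from 24.7 ± 4.08 to 33.5 ± 2.10 TPM (0.44), a call lost after median ratio scaling (adjusted p = 0.0769 in limma), with the B cell covariate (0.523) and without Rig1 KO 3 and 4 (0.106). Zfp568, which represses a placental transcript of Igf2, was the exception at 7.93 ± 0.384 and 6.57 ± 0.914 TPM (-0.25, adjusted p = 0.0429), a call lost in 6 of the 9 fits that left out 1 library.

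Of the other KRAB genes named for their role, Zfp266 rose (28.7 ± 1.22 to 37.9 ± 4.39 TPM, log2 fold change 0.38). Zfp689 (7.89 ± 1.48 to 10.9 ± 0.723 TPM, 0.43) and Zfp90 (13.3 ± 1.09 to 16.3 ± 1.99 TPM, 0.27) passed and lost their call after median ratio scaling (adjusted p = 0.0878 and 0.287 in limma) and with the B cell covariate (0.808 and 0.0764). In the latter fit the log2 fold change of Zfp689 was 0.05, while that of Zfp90 was 0.40, larger than its 0.27 without the covariate. Zfp90 also lost its call in 5 of the 9 fits that left out 1 library (without WT 3 or 4 or Rig1 KO 1, 2 or 3, adjusted p from 0.0547 to 0.0925). Zfp746 (PARIS), a repressor studied in neurons, did not pass, at 41.2 ± 1.67 in WT and 41.1 ± 1.41 TPM in Rig1 KO.

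Among regulators without KRAB, Zfp217, a corepressor-linked oncoprotein, rose from 40.3, 37.6, 40.7, 40.7 and 38.4 TPM to 49.9, 51.5, 55.1 and 54.5 TPM (log2 fold change 0.41, SE 0.0528). Its groups did not overlap, and it kept its call after median ratio scaling (0.27) and with the B cell covariate (0.39). The chromatin and transcription factors Zfp148, Zfp292, Zfp131, Zfp609, Zfp410 and Zfp384 did not pass, with log2 fold changes from -0.24 to 0.06. After median ratio scaling Zfp609 (-0.21, adjusted p = 0.0333 in limma) and Zfp384 (-0.33, 0.0435) were called lower, as was Zfp131. Zfp410, which keeps up the expression of Chd4, stood at 24.3 ± 1.04 and 25.5 ± 2.20 TPM. The RNA-linked genes Zfp106 (0.12), Zfp598, a ubiquitin ligase at collided ribosomes (0.05), and Zfp593, a ribosome biogenesis factor (-0.07), did not pass either, in contrast to Zfp622 above.

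The genes of proteins that work with KRAB zinc finger proteins were read from a list. Of 35 tested corepressor and heterochromatin genes 9 rose (25.7%, against 33.5% of all tested genes). Their median log2 fold change was 0.07, against 0.13. After median ratio scaling the median was -0.05, with 7 higher and 12 lower. TRIM28, the protein that KRAB domains bind, is encoded by a transcript that stood at 79.9 ± 5.17 in WT and 71.5 ± 5.63 TPM in Rig1 KO (Trim28, log2 fold change -0.16, adjusted p = 0.0775 in limma), and it was called lower after median ratio scaling (-0.30, adjusted p = 0.00138). The genes with the smallest p were Tasor, a subunit of the HUSH silencing complex (21.5 ± 1.47 to 38.9 ± 5.33 TPM, 0.82), the heterochromatin proteins Cbx1 (0.53) and Cbx5 (0.47), and the maintenance methyltransferase Dnmt1 (0.41). All 4 of these rose without overlap and kept their call after median ratio scaling.

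Other zinc finger families gave a mixed picture. Of 30 tested BTB zinc finger genes 18 rose and 1 fell, with a median of 0.34, and among them Zbtb6 (0.87), Zbtb4 (0.63) and Zbtb24 (0.66) rose, while Zbtb10 fell from 16.8 ± 1.97 to 2.74 ± 0.403 TPM (-2.25). Of 17 tested Zscan and Zkscan genes 8 rose and 2 fell, with a median of 0.24 (0.13 after median ratio scaling, with 6 higher and 4 lower). They were led by Zkscan3, a repressor of autophagy genes (0.76), Zscan26 (0.56), Zkscan8 (1.12) and Zscan22 (1.00). The CCCH genes, which bind RNA, had 2 higher, 3 lower and a median of 0.03 over 16 tested (-0.10 after median ratio scaling, with 2 higher and 7 lower), and Zc3h12a, the RNase Regnase-1, fell from 204 ± 15.4 to 40.9 ± 0.739 TPM (-2.28). No fall of that size was found among the 236 ZFP genes, whose largest was -0.74.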

How the data were processed

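Poly(A)-selected RNA was sequenced in 9 libraries, and groups come from the sample titles. No label ties a library to its own animal, so the spread behind the p-values may be technical. The authors deposited TPM, per the file headers, made with fastp and featureCounts on mm39 (GRCm39), per the submitters' processing notes. The aligner and annotation release are not given in the sources used here. Whole reads were recovered from the ratios of TPM values for 100% of genes (a shared divisor makes totals lower bounds), and implied lengths lay within 1% of the genomic span for 96.6% of 17486 genes.

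The test was limma 3.58.1 (R 4.3.3) on log2(TPM + 1) for genes that reached 1 TPM in 4 or more libraries (trend, two-sided, Benjamini-Hochberg over 10540 genes, threshold 0.05). The steps were tested on simulated data. A log2 fold change on this scale understates the change of low genes, and fold limits of 1.5 and 2 are on the ratio of mean TPM. The members and lists were chosen with earlier results of these data known.

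Classes come from translated GENCODE M21 coding sequences (GRCm38, an older build than the authors'), where 234 of the 236 genes were found. C2H2 fingers were counted by a pattern of conserved cysteines and histidines, and KRAB and SCAN domains by profiles (HMMER 3.4, E-value 0.0001) built from sequences that match a pattern. Promoters are the first RefSeq entry of each symbol. Neighbours are the nearest coding genes.

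Genes named are the 10 largest rises and up to 10 largest falls among members that passed without overlap, the 6 highest levels, 3 genes on either side of the threshold, a list of genes with known roles, and the 4 smallest p-values of each other list. Alternatives covered pseudocounts, filters, scaling, lengths, a B cell covariate, blocks and left-out libraries. The result of 1 gene of the corepressor list is not reported here.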

Additional observations from a re-analysis of the deposited data

Results flagged for a closer look

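Of 106 groups of values of the named genes, 3 held a library that stood apart from the rest of its group by more than Dixon's 95% limit, where chance alone gives about 1 in 20 such groups. Zfp160 was at 9.05 TPM in WT 3, where the lowest WT library was at 6.24 TPM. Zfp870, just outside the threshold, was at 3.74 TPM in WT 5, where the lowest WT library was at 0.906 TPM. Zfp598 was at 109 TPM in Rig1 KO 4, where the lowest Rig1 KO library was at 93.6 TPM.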

How the results depend on the processing

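Over all alternatives run, 205 of the counts stayed within 1.5 times the value reported and 13 did not, 1451 results of single genes kept their side of the threshold, 60 lost it and 17 gained it, and no call of a single gene reversed. Of the medians of all tested, ZFP and KRAB genes 62 stayed within the spread between libraries and 7 did not. After median ratio scaling the medians of the cofactors (-0.05), the CCCH genes (-0.10) and the ZFP genes with fewer than 3 fingers (-0.09) turned from positive to negative. With the B cell covariate 2875 genes were called in all, 77 ZFP genes higher and 6 lower, 49 KRAB genes higher and 3 lower, 12 BTB genes and 3 CCCH genes changed. Median ratio scaling gave 23 ZFP genes lower, 19 cofactors and 9 CCCH genes changed, and quantile scaling 18 cofactors. Without Rig1 KO 3 and 4, 96 ZFP genes were higher, and without Rig1 KO 1 and 2, 7 were lower (both chosen after seeing the data). The cause of these moves was not tested. Leaving out 1 library at a time gave 4036 to 4813 genes in all, 125 to 156 ZFP genes higher and 10 to 15 lower, 85 to 110 KRAB genes higher and 4 to 6 lower, 8 to 11 cofactors, 14 to 20 BTB, 9 to 10 SCAN and 4 to 6 CCCH genes changed, and 133 to 156 ZFP genes without overlap. Replicate numbers are shared by WT and Rig1 KO 1 to 4. The deviations of same-numbered libraries from their group means correlated at 0.0972, -0.0601, -0.0996 and -0.0724. Libraries with the same number in the file headers correlated at 0.0409, 0.00784, 0.152 and -0.162. Not every library correlated best with its own number. Values this near 0 cannot decide whether either numbering pairs the libraries. With the replicate block 138 ZFP genes were higher and 11 lower, and 4777 genes were called in all. With a block by the numbers in the file headers (added after seeing the data) 129 were higher and 11 lower. Zfp683 did not pass in either (adjusted p = 0.0544 and 0.0783 in limma). Depth limits the genes of low level, down to 4 reads for Zfp593.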

Other observations

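Of the 110 ZFP symbols under the threshold, 24 were tested, of which 9 were higher and 1 lower in Rig1 KO, with a median log2 fold change of 0.21. Other tested genes with at least 3 C2H2 fingers, which carry other symbols or lie under the threshold, had 99 higher and 21 lower of 193 and a median of 0.28. Of all tested genes 33.5% were higher and 12.2% lower.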
